A study of Rattus norvegicus with 6 samples.

Results

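The comparison described here sets microglia stimulated with glioma-conditioned medium (GCM) directly against microglia stimulated with lipopolysaccharide (LPS). It uses 4 of the 6 libraries of the series, 2 per stimulus, and all 129499 counted regions of open chromatin, of which 126284 had enough counts to be tested. The 2 untreated libraries serve as the reference that tells an opening with LPS, a closing with LPS and an opening with GCM apart. Each library is DNase I sequencing of a separate culture of primary microglia from the cerebral cortex of newborn Wistar rats, each pooled from several pups, grown in medium with serum and shaken off mixed cultures. LPS from Salmonella enteritidis was given at 100 ng/mL for 6 h. GCM was serum-containing medium taken from cultures of C6, a rat glioma line, and was given for 6 h. Untreated cultures got neither, and the labels name no unconditioned medium as a further control. The libraries are of cell cultures, so they do not show microglia in a brain or beside a tumour. Marker genes could not be used to check the cell type, because no annotation of the genome build of the files (rn5) was used, and regions are named by position, with no gene, exon or intron assigned.

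DNase I cuts DNA that is not wrapped in nucleosomes, and regions of dense cutting mark active promoters, enhancers and other bound elements. Microglia sense LPS through Toll-like receptor 4, which activates NF-kB, AP-1 and interferon regulatory factors, and these factors open enhancers of inflammatory genes in macrophages. Glioma cells release cytokines, growth factors and matrix proteins that drive microglia towards a state that supports tumour invasion. Accessibility is given as CPM, counts-per-million, here the tags of a region scaled to the library's tags in tested regions with edgeR's TMM factors. Each region held a median of 36 to 64 tags per library. The cells were measured in bulk, so a response in fewer cells and a weaker response in each cell cannot be told apart.

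Accessibility was higher with LPS than with GCM in 6109 regions and higher with GCM than with LPS in 4731. These are 4.84% and 3.75% of the tested regions, and 8.58% together (edgeR quasi-likelihood test, Benjamini-Hochberg adjusted p under 0.05). The differences towards LPS were the larger ones. The median was 1.81-fold in regions higher with LPS and 1.67-fold in regions higher with GCM. Over 2-fold differences were found in 2001 of the regions higher with LPS and in 803 of those higher with GCM, over 3-fold in 226 and 30, and over 4-fold in 40 and 3. In 6101 of the 6109 and 4706 of the 4731, both libraries of the higher stimulus lay above both of the other. Over all tested regions that was so in 25.3% towards LPS and 24.3% towards GCM, since 2 libraries a side separate easily.

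The counts fell when single libraries were left out, though each such fit leaves 1 library in a group and so loses power. Without GCM replicate 2, 2752 regions were higher with LPS and 1181 higher with GCM, and without LPS replicate 2 they were 3141 and 1703. Without GCM replicate 1 the counts in both directions fell less than without GCM replicate 2, most of all those higher with GCM. DESeq2 called 595 and 109 regions, and a test against a fold of 1.5 called 570 and 64. The share of calls that were higher with GCM was 43.6%, but 17.7% when libraries were scaled to their whole totals (961 of 5433), 15.5% in DESeq2 and 51.5% among regions with a hotspot in all 6 lists. Counted regions held 13.7% and 10.0% of the reads of the GCM libraries and 12.2% and 12.1% of those of the LPS libraries, and the part of this gap in the split was not tested.

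Against the untreated reference, most regions higher with LPS were called openings by LPS, and most higher with GCM were called for neither stimulus. In a fit with either untreated library left out, openings by LPS were no longer the majority of regions higher with LPS. LPS raised 6.71% of all tested regions above untreated and lowered 3.14%, and GCM raised 1.34% and lowered 0.231%. Regions higher with LPS than with GCM included 3997 (65.4%) that LPS raised above untreated and GCM did not change by the test, here called LPS gain. Another 2062 (33.8%) were called for neither stimulus against untreated. Regions lowered by GCM alone, called GCM loss, numbered 35 (0.573%). Of the regions higher with GCM, 1242 (26.3%) were lowered by LPS alone (LPS loss), 499 (10.5%) were raised by GCM alone (GCM gain), and 2980 (63.0%) were called for neither. The 3 comparisons share libraries, so these counts describe the regions and add no test.

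**Figure D1:**
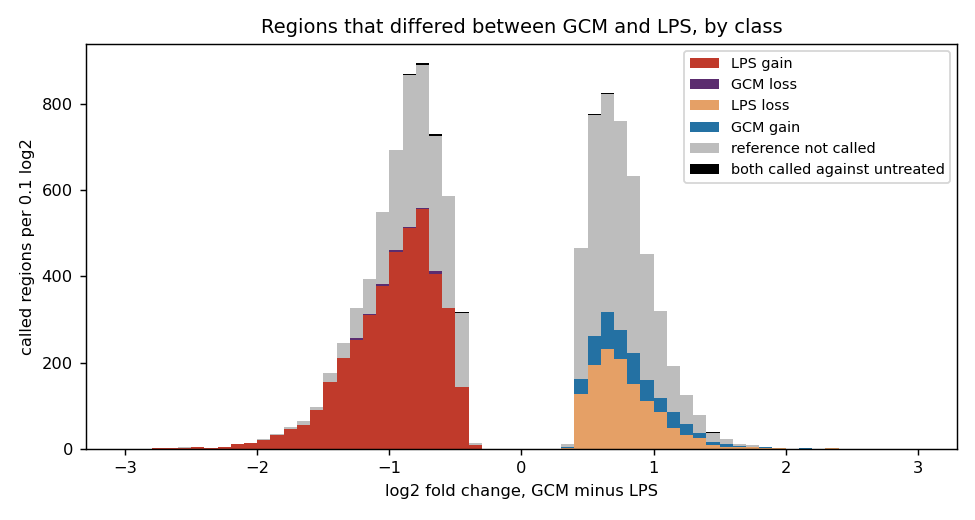
Histogram of the log2 fold change of GCM minus LPS in the 10840 regions that differed, stacked by class, with the number of regions per 0.1 log2 on the vertical axis. LPS gain fills most of the left side and its long tail, while grey regions, called for neither stimulus against untreated, fill most of the right side.

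The medians by library describe each class, whose separation follows from the tests that define it. In LPS gain the median was 6.80 and 6.85 CPM in the LPS libraries, 3.32 and 3.61 CPM in the GCM libraries and 3.49 and 3.22 CPM untreated. The GCM and untreated libraries thus interleaved, and both LPS libraries lay far above them. LPS loss was the reverse, with 4.98 and 4.81 CPM in the LPS libraries, 8.11 and 8.28 CPM with GCM and 7.88 and 8.27 CPM untreated. GCM gain had 6.39 and 7.46 CPM with GCM, 4.27 and 3.84 CPM with LPS and 3.85 and 3.78 CPM untreated. GCM loss had 2.83 and 3.20 CPM with GCM, 5.69 and 5.14 CPM with LPS and 5.55 and 5.19 CPM untreated. The untreated median of LPS loss lay above, and those of LPS gain and GCM gain below, the 5.19 CPM of all tested regions, and selection on the same untreated libraries bears on this order.

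**Figure D2:**
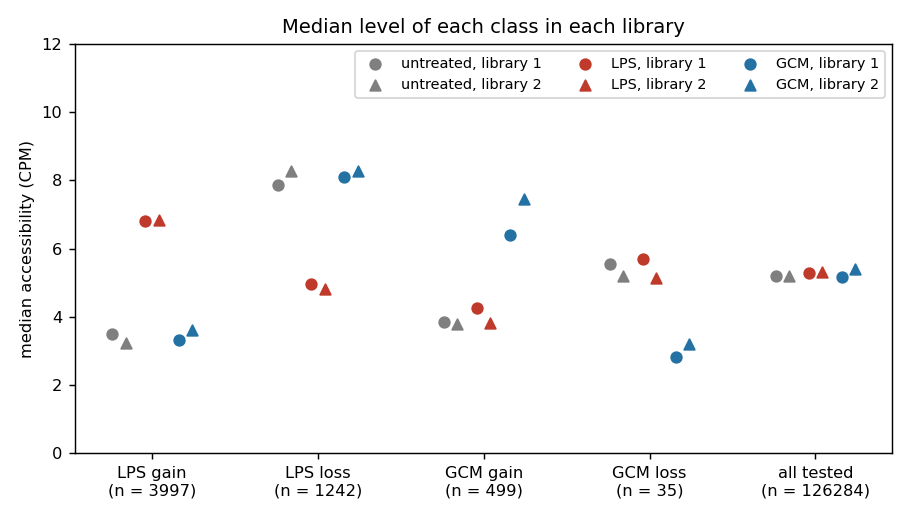
Median accessibility in CPM of 4 classes and of all tested regions, with a point for each library, coloured by group and shaped by library number. In each class the 2 libraries of the stimulus that moved stand apart from the other 4, as the definition of the classes sets, whereas over all tested regions the 6 medians lie between 5.16 and 5.41 CPM.

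The size of the classes changed when single libraries were left out. Each such fit leaves 1 library in a group, so the weight of a library and a loss of power cannot be told apart. LPS gain held 1971 regions without untreated replicate 1, 2366 without untreated replicate 2, 2175 without GCM replicate 2 and 2185 without LPS replicate 2. LPS loss held 356, 429, 512 and 526 in the same order. GCM gain also held fewer regions in each of these fits, and fewest without untreated replicate 1. Without GCM replicate 2 it nearly vanished too. Without GCM replicate 1 or LPS replicate 1 it held more regions than with all libraries. With whole-library scaling LPS gain held 2948 regions, LPS loss 131 and GCM gain 60.

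The 10 regions higher with LPS that had the smallest p-values were all raised by LPS above untreated and all belonged to LPS gain. They lay on 7 chromosomes, and LPS exceeded GCM 2.67-fold to 4.50-fold. At chr10:65522734-65523323, the LPS libraries held 15.1 and 17.8 CPM, the GCM libraries 4.42 and 4.67 CPM and the untreated ones 5.91 and 5.61 CPM. Both GCM libraries lay below both untreated libraries there, but GCM against untreated did not pass the test (log2 -0.34, adjusted p = 0.447, edgeR). The difference of GCM from LPS was -1.86 ± 0.158 (log2 ± SE over 2 libraries a side, adjusted p = 5.83e-10, edgeR).

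At chr13:74009637-74010586 LPS gave 20.2 and 20.4 CPM, GCM 4.55 and 6.96 CPM and untreated 7.79 and 7.01 CPM. The LPS libraries agree closely with each other there, and the difference was -1.77 ± 0.152 (log2 ± SE, adjusted p = 5.83e-10, edgeR). This region had a hotspot, a stretch of dense cutting from the authors' list per library, in both LPS lists, in 1 GCM list and in no untreated list. Chromosome 5 held 4 of the 10. The strongest by p, chr5:168455911-168456501, went from 5.46 and 4.34 CPM untreated to 15.3 and 18.1 CPM with LPS and held 4.06 and 5.24 CPM with GCM. It had hotspots in both LPS lists and in no other list. At chr5:159900057-159900392 the libraries within a group spread more, with 4.57 and 2.24 CPM untreated, 4.06 and 2.13 CPM with GCM and 12.2 and 13.2 CPM with LPS. Its 4.36-fold difference was the largest towards LPS among regions with at least 20 counts in each of the 4 libraries.

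The largest fold of the 10 was 4.50, at chr12:42814310-42814697, which held 9.65 and 10.3 CPM with LPS, 1.97 and 2.38 CPM with GCM and 3.49 and 1.82 CPM untreated. At chr16:11487501-11487909 and chr8:49657376-49658023 the untreated level lay close to that with GCM. The former held 3.85 and 3.92 CPM untreated and 4.18 and 4.01 CPM with GCM, against 12.8 and 14 CPM with LPS. The latter held 4.03 and 3.36 CPM untreated and 3.81 and 4.18 CPM with GCM, against 11.9 and 14.4 CPM with LPS. The widest and most open of the 10, chr5:160863141-160864374, held 21.7 and 21.6 CPM with LPS, 6.76 and 9.09 CPM with GCM and 10.6 and 9.81 CPM untreated. The log2 changes of the 10 with GCM over untreated ran from -0.36 to 0.10 (adjusted p from 0.329 to 0.925, edgeR).

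**Figure D3:**
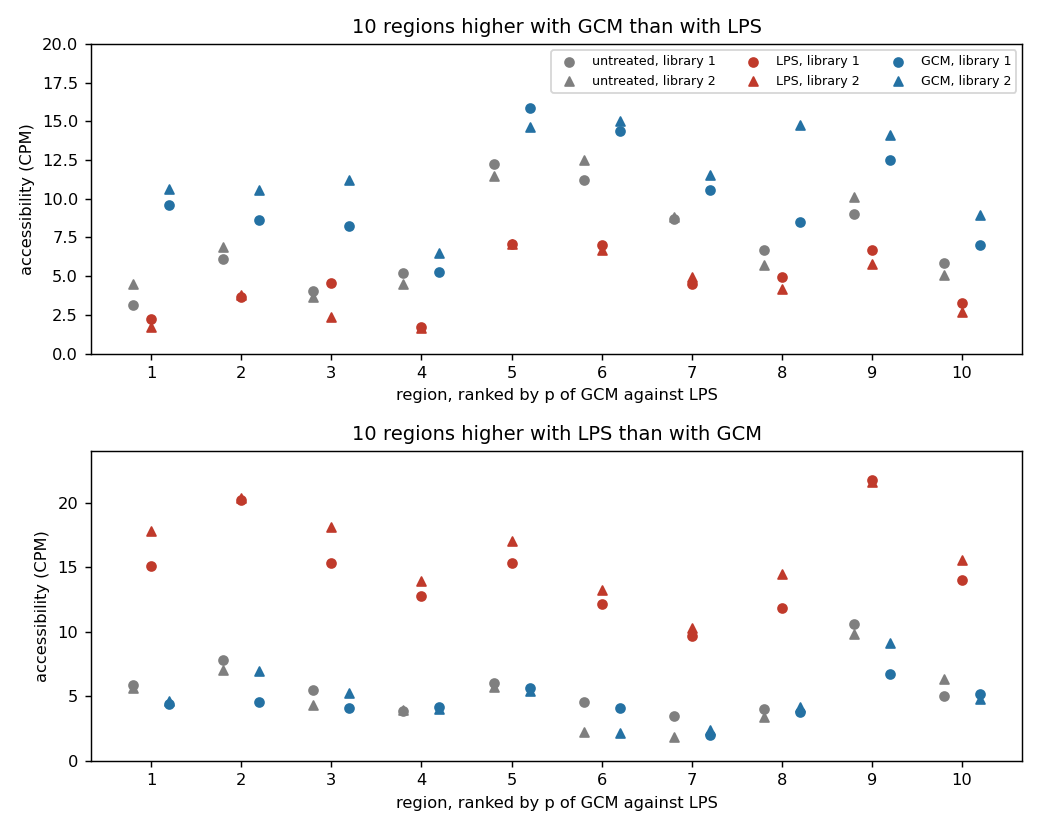
Accessibility in CPM of the 10 regions per direction that ranked first by p, a point per library, coloured by group. In the lower panel the untreated and GCM points lie together far below the LPS points, and in the upper panel the untreated mean of each region lies between the means of the other groups.

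The 10 regions higher with GCM that had the smallest p-values were less uniform. LPS lowered 8 of them below untreated and GCM raised 3 above it, and the untreated mean lay between the means of the stimuli in all 10. GCM exceeded LPS 2.13-fold to 5.22-fold. The strongest, chr15:88619483-88620050, moved both ways from the reference, with 3.13 and 4.48 CPM untreated, 2.23 and 1.71 CPM with LPS and 9.59 and 10.7 CPM with GCM. The difference was 2.38 ± 0.213 (log2 ± SE, adjusted p = 1e-09, edgeR). Its hotspots were in both GCM lists, in no LPS list and in 1 untreated list.

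Among regions of LPS loss, chr18:4770033-4770656 held 3.66 and 3.75 CPM with LPS against 8.60 and 10.6 CPM with GCM and 6.09 and 6.87 CPM untreated. The LPS libraries were the lowest and did not overlap the others, and the GCM libraries were the highest, but the rise over untreated did not pass the test (adjusted p = 0.0534, edgeR). At chr13:24494685-24495013 the level with LPS was 1.73 and 1.63 CPM, against 5.28 and 6.47 CPM with GCM and 5.19 and 4.48 CPM untreated. The difference of 1.83 ± 0.242 (log2 ± SE, adjusted p = 1.78e-06, edgeR) was thus mostly a closing by LPS (log2 -1.55 against untreated, adjusted p = 7.63e-05, edgeR). More open members of the class were chr1:262511328-262511805 and chr14:83818320-83819004. The former held 7.11 and 7.10 CPM with LPS, 15.9 and 14.7 CPM with GCM and 12.3 and 11.5 CPM untreated. The latter held 7.01 and 6.69 CPM with LPS, 14.4 and 15.0 CPM with GCM and 11.2 and 12.5 CPM untreated. Both kept hotspots in all 6 lists, so the closing was partial.

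Among regions of GCM gain, chr17:1378087-1378679 held 8.23 and 11.2 CPM with GCM, 4.57 and 2.37 CPM with LPS and 4.03 and 3.64 CPM untreated. LPS libraries lay on both sides of the untreated ones. GCM exceeded LPS by 1.57 ± 0.207 (log2 ± SE, adjusted p = 1.78e-06, edgeR) and untreated by 1.36 (adjusted p = 0.00045, edgeR). It had hotspots in the 2 GCM lists and in no other. At chr13:80994474-80995101 the GCM libraries differed from each other, at 8.48 and 14.7 CPM, and both lay above 4.98 and 4.16 CPM with LPS and 6.72 and 5.75 CPM untreated. The region chr4:179899204-179899736 held 15.9 and 11.6 CPM with GCM, 4.37 and 6.77 CPM with LPS and 8.42 and 8.41 CPM untreated. The GCM level at chr11:65601215-65601488 rested on replicate 2. It held 3.81 and 7.37 CPM with GCM, 2.34 and 1.96 CPM with LPS and 3.13 and 2.10 CPM untreated, and without GCM replicate 2 its difference of 1.48 fell to 0.85 (adjusted p = 0.159, edgeR).

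All 20 of these smallest-p regions kept their call and direction in each leave-one-out fit, with whole-library scaling and in DESeq2. The untreated libraries are not part of the contrast that chose the regions, though they share in its estimate of spread, and their place between the stimuli is given as a description. On the scale of log2(CPM + 0.5), with 0 at the LPS mean and 1 at the GCM mean, the untreated level had a median of 0.88 in regions higher with LPS, and 86.8% of them were closer to GCM than to LPS. With untreated replicate 1 or 2 taken alone the shares were 82.9% and 83.8%. In regions higher with GCM the median was 0.58, and 57.2% were closer to GCM. In 12.7% of these the untreated level lay beyond that with GCM and in 10.3% beyond that with LPS. Among regions higher with LPS these shares were 35.9% and 0.786%.

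**Figure D4:**
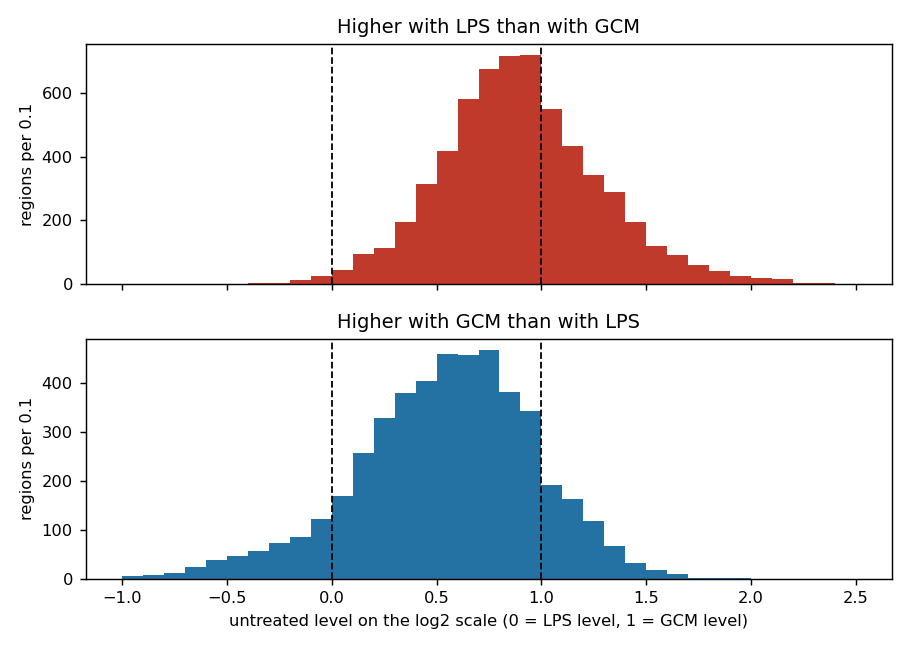
Number of regions by the position of the untreated level on the log2 scale, in steps of 0.1, where 0 is the LPS mean and 1 the GCM mean. Regions higher with LPS peak just below 1, and regions higher with GCM spread over the whole span. In all, 14 regions higher with GCM and 2 higher with LPS fall outside the plot.

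Most regions higher with LPS also had the untreated level closer to GCM than to LPS in other fits. The share was 87.6% to 91.6% in the calls of the leave-one-out fits, 96.5% in DESeq2 and 93.8% with whole-library scaling. The middle position in regions higher with GCM was less stable. The share closer to GCM ran from 51.2% without LPS replicate 1 to 65.5% without GCM replicate 2, was 72.5% in DESeq2 and fell below even, to 42.4%, with whole-library scaling. Regions called for neither stimulus against untreated have the untreated mean between the stimuli almost by their definition (95.6% of those higher with GCM and 96.8% of those higher with LPS). In those higher with GCM the median log2 change from untreated was -0.35 with LPS and 0.38 with GCM. Their untreated level had a median position of 0.49, with 49.2% closer to GCM. In those higher with LPS it was 0.58, with 63.3% closer to GCM.

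At an unadjusted p under 0.05 in all 3 contrasts, 341 regions moved in opposite directions (edgeR). Such movement at an adjusted p under 0.05 was rare, called in 3 regions (0.0024% of those tested). These were the chromosome 15 region above and 2 others. At chr7:139517071-139517424 LPS gave 8.84 and 9.79 CPM, GCM 2.58 and 3.03 CPM and untreated 5.01 and 6.45 CPM. The difference of GCM from LPS was -1.71 ± 0.198 (log2 ± SE, adjusted p = 1.68e-07, edgeR). At chr1:220588164-220588657 the order was reversed, with 2.64 and 3.18 CPM with LPS, 7.37 and 8.36 CPM with GCM and 4.48 and 5.19 CPM untreated. In all 3 the groups did not overlap. The count was 0 without either untreated library and with DESeq2 (22 regions in DESeq2 at an unadjusted p under 0.05 in all 3 contrasts).

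LPS and GCM both raised 0.454% of the tested regions over the shared untreated libraries and both lowered 0.0958%. In 22 regions both stimuli were called in the same direction against untreated and still differed, 14 with LPS higher and 8 with GCM higher. At chr1:14187919-14188380 the level rose from 1.88 and 1.40 CPM untreated to 3.56 and 4.26 CPM with GCM and 8.63 and 8.65 CPM with LPS, so that GCM stood between. At chr2:163805757-163806359 untreated cultures held 5.19 and 3.22 CPM, GCM 7.0 and 9.26 CPM and LPS 15.9 and 14.4 CPM. The reverse order was found at chr13:32571458-32571843, with 2.51 and 2.38 CPM untreated, 5.59 and 4.08 CPM with LPS and 8.23 and 10.0 CPM with GCM. GCM exceeded LPS there by 0.96 ± 0.179 (log2 ± SE, adjusted p = 0.000335, edgeR).

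GCM loss was the smallest of the 4 main classes by number. The stimuli differed over 2-fold in 1588 of 3997 LPS gain regions, 217 of 1242 LPS loss regions and 124 of 499 GCM gain regions. In GCM loss they did so in 15 of 35 regions. At chr1:233348359-233349107 GCM gave 4.67 and 6.23 CPM, below 12.2 and 13.5 CPM with LPS and 9.58 and 10.5 CPM untreated. At chr9:113089301-113090004 it gave 4.42 and 5.41 CPM, below 10.8 and 11.3 CPM with LPS and 8.42 and 7.57 CPM untreated. At chr7:119457751-119458168 it gave 3.93 and 3.36 CPM, below 8.23 and 8.65 CPM with LPS and 6.89 and 5.19 CPM untreated. The LPS libraries were the highest in each, without a tested rise over untreated (adjusted p from 0.0528 to 0.0981, edgeR). Without untreated replicate 1 no region was called GCM loss (793 at an unadjusted p under 0.05, edgeR), and without untreated replicate 2 or GCM replicate 2 the class held 1.

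Where the stimuli did not differ by the test, the precision was often enough to limit the difference. The 95% interval of GCM against LPS stayed within 1.5-fold either way in 57682 regions, 45.7% of those tested. At chr17:23190396-23192174, which both stimuli raised, LPS gave 29.9 and 29.0 CPM, GCM 30.0 and 30.6 CPM and untreated 21.0 and 22.4 CPM. The interval of the difference ran from -0.20 to 0.29 (log2). At chr8:50668875-50669921 the values were 21.3 and 22.1 CPM with LPS, 21.8 and 22.6 CPM with GCM and 15.7 and 16.1 CPM untreated, and the interval ran from -0.22 to 0.28. At chr7:80526503-80527195 they were 19.9 and 19.1 CPM, 19.4 and 21.6 CPM, and 11.7 and 11.6 CPM in the same order, with an interval from -0.17 to 0.34. These 3 regions were chosen for a small error and a high p. All stimulated libraries exceed the untreated ones, and GCM and LPS libraries overlap in the regions on chromosomes 8 and 7, while on chromosome 17 both GCM libraries lie slightly above both LPS libraries.

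Broad, highly open regions differed little. Only 2.85% of regions higher with LPS and 3.70% of those higher with GCM were over 1 kb wide, compared with 8.40% of all tested regions. The median widths were 367, 392 and 376 bp in that order, so the classes lacked wide regions more than they favoured narrow ones. LPS loss had the widest median of the 4 main classes, at 460.5 bp. By mean count of the 4 libraries, in 4 groups of about equal size, 5.79% of the most covered regions were called, compared with 10.6% of the group just below. The most covered group had the finest resolution, with calls down to 1.30-fold, while in the least covered group the smallest called fold was 1.66.

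The most open region higher with LPS, chr17:52330124-52332952, held 59.8 and 60.0 CPM with LPS, 45.3 and 36.9 CPM with GCM and 45.3 and 44.7 CPM untreated. The most open region higher with GCM, chr7:74866562-74868940, held 43.7 and 41.0 CPM with GCM, 31.1 and 32.9 CPM with LPS and 41.8 and 40.5 CPM untreated. The latter lost its call without LPS replicate 1 or 2 (adjusted p = 0.200 and 0.158, edgeR) and without either untreated library (0.0865 and 0.0880), and the former without LPS replicate 2 (0.0574). Other very open regions higher with GCM, at chr3:115563993-115565540 and chr17:13037691-13039427, held 30.7 and 31.3 CPM and 32.9 and 26.2 CPM with LPS. With GCM they held 46.9 and 37.7 CPM and 43.1 and 40.0 CPM, near the untreated 43.0 and 39.8 CPM and 43.2 and 43.2 CPM. The former lost its call in 5 of the 6 leave-one-out fits, all but that without GCM replicate 2 (adjusted p from 0.0637 to 0.162, edgeR), and the latter without LPS replicate 2 (adjusted p = 0.327, edgeR). With whole-library scaling these 4 very open regions all lost the call.

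The hotspot lists come from the same libraries as the counts and built the regions. Their overlap with the calls is thus a description and not a separate test. Of the regions higher with LPS, 2947 (48.2%) had a hotspot in both LPS lists and in no GCM list, and 2083 (34.1%) had hotspots in all 4 lists. Over all tested regions these shares were 8.85% and 64.2%. Of the regions higher with GCM, 1222 (25.8%) had a hotspot in both GCM lists and in no LPS list, compared with 4.04% of all tested regions, and 2619 (55.4%) in all 4. Both directions thus had hotspots in all 4 lists less often than tested regions at large, as a description with no test. In LPS gain 50.3% had no untreated hotspot, in GCM gain 34.3% and in LPS loss 0.242%, compared with 13.3% of all tested regions. Of the 11174 regions with hotspots in both LPS lists and no GCM list, only 26.4% passed the count test, and of the 5098 with the opposite pattern 24.0%.

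Most regions that differed stood singly, but a neighbour called in the same direction was more frequent than over all tested regions, as a description with no test. In chromosome order, 19.0% of those higher with LPS and 15.9% of those higher with GCM stood next to another tested region called in the same direction. By the width of the gap, the next region was also higher with LPS after 5.98% to 13.6% of those higher with LPS, beside 4.84% of all tested regions. It was also higher with GCM after 7.62% to 10.5% of those higher with GCM, beside 3.75%. Of all calls, 56.4% were higher with LPS and 43.6% higher with GCM. When 2 adjacent tested regions were both called, they had the same direction in 1029 of 1374 pairs (74.9%). That share was 79.3% for gaps under 0.5 kb and 68.9% for gaps of 100 to 1000 kb. Runs of 3 or more numbered 75 towards LPS and 43 towards GCM.

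The longest run was of 6 regions higher with LPS, within 18.6 kb at chr5:166910434-166929016. Their summed accessibility was 51.2 and 49.3 CPM with LPS, 26.4 and 25.6 CPM with GCM and 26.6 and 24.7 CPM untreated. LPS raised 5 of the 6 above untreated, and the log2 differences of GCM from LPS ran from -1.59 to -0.56. DESeq2 called 1 of the 6, and 1 of the 4 in each of the runs of 4 below. All 6 stayed called without GCM replicate 1 and without LPS replicate 1, 5 without LPS replicate 2 and 4 without GCM replicate 2. A run of 4 at chr5:111714587-111769499, all of them LPS gain, summed to 28.4 and 29.0 CPM with LPS, 12.8 and 11.6 CPM with GCM and 12.9 and 14.3 CPM untreated, and 2 of its 4 lost the call without GCM replicate 2. A run of 4 at chr2:262702588-262723000 summed to 47.5 and 60.7 CPM with LPS, 31.1 and 33.9 CPM with GCM and 35.7 and 32.1 CPM untreated, and 1 of the 4 kept the call without GCM replicate 2 or without LPS replicate 2.

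The longest run higher with GCM held 5 regions over 313.7 kb at chr2:11017074-11330747. They summed to 32.1 and 36.2 CPM with GCM, 21.0 and 17.1 CPM with LPS and 21.6 and 22.1 CPM untreated, and GCM raised 3 of the 5 over untreated. DESeq2 called 0 of the 5, and 0 of the 4 in each of the runs of 4 below. Without GCM replicate 2 or without LPS replicate 2 only 2 of the 5 stayed called. At chr13:117685471-117725032 a run of 4 summed to 41.3 and 44.5 CPM with GCM, 27.6 and 23.9 CPM with LPS and 32.1 and 31.5 CPM untreated. At chr5:90389383-90466728 another run of 4 summed to 34.4 and 35.1 CPM with GCM, 19.1 and 22.3 CPM with LPS and 26.7 and 27.6 CPM untreated. Both of these mixed a region of LPS loss, a region of GCM gain and regions called for neither, and 1 region of each stayed called without GCM replicate 2.

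In windows of 1 Mb, the most regions higher with LPS were 22 of 99, at 54 to 55 Mb on chromosome 10, of which 15 were LPS gain, beside 4 higher with GCM. Together the 22 held 211.2 and 227.6 CPM with LPS, 120.4 and 124.1 CPM with GCM and 137.5 and 129.8 CPM untreated. The same chromosome held 19 of 113 at 70 to 71 Mb, with 14 of LPS gain, and chromosome 17 held 16 of 118 at 24 to 25 Mb, with 14 of LPS gain. The last 2 windows also held 8 and 3 regions higher with GCM. In DESeq2 the 3 windows held 4, 2 and 4 regions higher with LPS. Without GCM replicate 2 the 3 windows held 11, 9 and 9 regions higher with LPS, and without LPS replicate 2 they held 13, 8 and 6. At 70 to 71 Mb on chromosome 10 the order turned without LPS replicate 2, with 9 regions higher with GCM and 8 higher with LPS. The most regions higher with GCM were 15 of 116, at 107 to 108 Mb on chromosome 7, beside 6 higher with LPS. At 41 to 42 Mb on the same chromosome 12 of 143 were higher with GCM and 7 higher with LPS. A window at 118 to 119 Mb on chromosome 5 had 12 of 101 higher with GCM and 0 higher with LPS, and its 12 held 97.0 and 100.3 CPM with GCM, 63.5 and 59.6 CPM with LPS and 68.6 and 72.5 CPM untreated. In DESeq2 each of these 3 windows held 0 regions higher with GCM. Without GCM replicate 2 the windows on chromosome 7 turned, with 2 regions higher with GCM and 5 higher with LPS at 107 to 108 Mb and 1 and 4 at 41 to 42 Mb. With whole-library scaling they turned too, to 2 and 5 and to 3 and 6. Without LPS replicate 2 they held 4 and 4, and 6 and 3. The window on chromosome 5 held 4 regions higher with GCM without GCM replicate 2 or without LPS replicate 2 and 2 with whole-library scaling, and 0 higher with LPS in each.

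The chromosomes differed in both shares. The share of tested regions higher with GCM was lowest on chromosomes 12 (2.15%), 20 (2.27%) and 10 (2.40%) and highest on chromosome 17 (5.41%). The share higher with LPS ran from 2.60% on chromosome X to 5.74% on chromosome 16. Calls higher with GCM outnumbered those higher with LPS on chromosomes X (77 and 51), 13 (224 and 213) and 18 (142 and 133). That order turned on all 3 without GCM replicate 2, without LPS replicate 2, with whole-library scaling and in DESeq2. With whole-library scaling 30.8% of the calls on X were higher with GCM. On chromosome 13 the order also turned without untreated replicate 1 or 2. On chromosome 10 the share of calls higher with GCM stayed below that over all chromosomes without each library in turn. The gap was small without LPS replicate 2. On chromosome 12 the share was above that over all chromosomes without GCM replicate 2 and without LPS replicate 2, and on chromosome 20 without LPS replicate 2. Chromosome 10 took 7.24% and 7.51% of the counts of the LPS libraries and 7.31% and 7.28% of those of the GCM libraries, so libraries of 1 group differed as much as the groups, and the part of this in the calls was not tested.

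**Figure D5:**
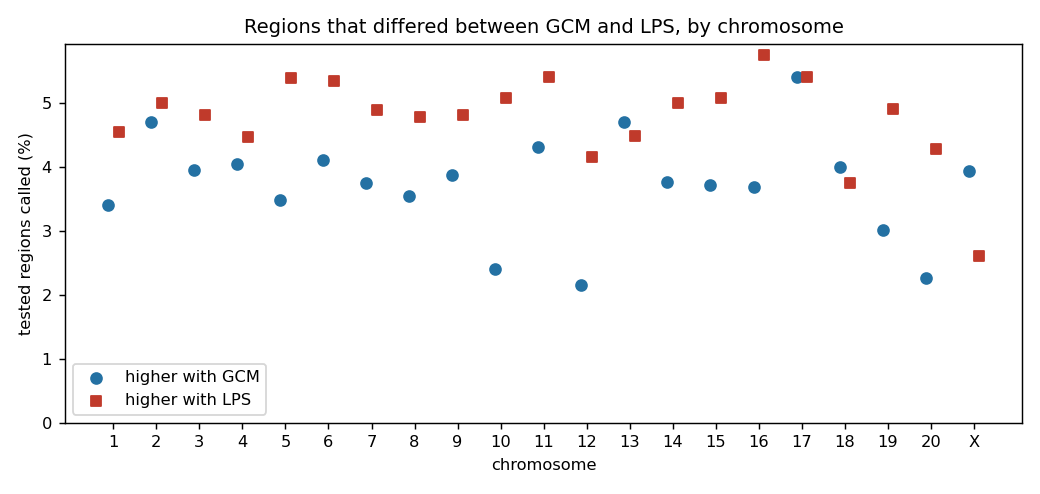
Percentage of the tested regions of each chromosome that were higher with GCM (circles) or with LPS (squares). Squares lie above circles on most chromosomes, circles are lowest on 10, 12 and 20, and the order is reversed on X, 13 and 18. It was not reversed there without GCM replicate 2 or LPS replicate 2, with whole-library scaling or in DESeq2, nor on 13 without untreated replicate 1 or 2.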

How the data were processed

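DNase I libraries of 6 cultures were compared, with groups taken from the sample titles. The authors deposited raw counts of tags per region, and per the submitters' processing notes used build rn5 and, without stated roles, edgeR, DiffBind, Picard 1.95, Bowtie 1.1.2, SAMtools and cutadapt 1.8.3. Libraries held 60101604 to 120486897 tags in all, of which 7136940 to 12395467 lay in regions. Whole totals came from the CPM the authors deposited in their comparison tables, since counts divided by these CPM gave 1 total per library (100% of values gave a whole count to within 0.001). The log2 fold changes and adjusted p-values (FDR) that the authors deposited for each stimulus against untreated served only as an alternative reference. Of the hotspot lists, named for a false discovery rate of 0.01, only intervals were used and not the score the authors deposited, and an overlap of 1 bp counted. A further 12 columns of CPM per base in the authors' tables were not used.

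Counts were fitted in edgeR 4.0.16 under R 4.3.3 (filterByExpr with a minimum count of 10, TMM, quasi-likelihood, 2 libraries a group, all 6 in 1 fit with a shared spread). The SE is the log2 fold change over the square root of F. Cultures are separate per the series design, but p-values rest on 2 a side. Depth limits precision, and no molecular identifiers are stated. The fit was tested on simulated data. Summaries were made in Python 3.11.15 (scipy 1.17.1, numpy 2.4.6, pandas 2.3.3). Positions count from 1.

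Regions were named by rule: per direction the 10 smallest p with both libraries apart, the 3 most open and the 3 largest folds with at least 20 counts in each of the 4 libraries; the 3 smallest p per class; the 3 longest runs and fullest windows of 1 Mb (ties by the smallest p); and 3 regions raised by both stimuli with the smallest SE and an adjusted p over 0.5. Members, lists and rules were chosen with earlier results of these data known. Alternatives covered scaling, filters, tests (DESeq2 1.42.0), single libraries, region subsets, thresholds and a replicate block. Gene lists, markers and motifs that needed an rn5 genome or annotation were not used here.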

Additional observations from a re-analysis of the deposited data

How the results depend on the processing

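No called region that is named reversed in any alternative in which it was tested, and 2 of the 10840 calls changed sign, both without GCM replicate 2. Leaving out each library in turn gave 3933 to 9751 regions that differed (1181 to 4097 higher with GCM, 2752 to 5654 higher with LPS), 1971 to 3065 of LPS gain, 356 to 989 of LPS loss, 2 to 617 of GCM gain, 0 to 44 of GCM loss, 0 to 9 moved in opposite directions, 1 to 16 moved the same way unequally and 1237 to 7368 called for neither stimulus. In the order total, higher with GCM, higher with LPS, LPS gain, LPS loss, GCM gain, GCM loss, opposite, same way and neither, DESeq2 gave 704, 109, 595, 314, 22, 0, 0, 0, 0 and 368. The test against 1.5-fold gave 634, 64, 570, 293, 5, 0, 0, 0, 0 and 336, the regions holding hotspots of all 6 libraries 3222, 1660, 1562, 1004, 424, 153, 4, 0, 3 and 1634, and an adjusted p under 0.01 4890, 1713, 3177, 2119, 333, 78, 1, 0, 1 and 2358. At an unadjusted p under 0.05 in each contrast DESeq2 gave 528 of GCM gain and 109 of GCM loss, and the 1.5-fold test 270 and 65. Whole-library scaling gave 5433 in total, 961 higher with GCM, 4472 higher with LPS, LPS loss 131, GCM gain 60, GCM loss 6, opposite 0, same way 2 and neither 2286. Regions moved in opposite directions numbered 5 with DESeq2 size factors, with totals in regions, with a minimum count of 20 and with the authors' deposited tables as reference (chosen after seeing the data), 6 in regions of at least 200 bp and 11 in the likelihood ratio test, which gave 62 of GCM loss and 34 of same way. The cause of these changes was not tested, except that subsets and stricter thresholds test or keep fewer regions by construction. With a replicate block for the shared replicate numbers, which are not shown to pair the cultures (deviations of same-numbered libraries over regions had r = -0.00127 for LPS with GCM, 0.048 for untreated with LPS and 0.105 for untreated with GCM), GCM gain held 758 in place of 499, GCM loss 79, opposite 13 and same way 45 regions, and the total was 12670. The block ended no call of a named region, whereas DESeq2 ended that of 37 named regions. The fit of the 4 stimulated libraries alone called 9656, 4068 of them higher with GCM, and gives no classes. No motif window could be compared, since no rn5 genome was used. Depth limits calls among the least covered regions to 1.66-fold and more.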

Other observations

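Neighbouring regions could differ between the stimuli in opposite directions. Adjacent tested regions under 0.5 kb apart were both called in 135 pairs, and in 28 of these the directions were opposite. The 3 such pairs with the smallest p-values were picked after their values were seen. At chr2:48138884-48139160, LPS gave 4.37 and 6.53 CPM, GCM 1.72 and 2.13 CPM and untreated 2.15 and 1.54 CPM. Only 61 bp further on, at chr2:48139222-48139544, LPS gave the lowest values, 2.23 and 3.59 CPM, against 5.41 and 6.80 CPM with GCM and 5.01 and 5.61 CPM untreated. The former was higher with LPS (GCM minus LPS -1.50 ± 0.245, log2 ± SE, adjusted p = 5.36e-05, edgeR) and the latter higher with GCM (1.06 ± 0.220, adjusted p = 0.00122, edgeR), and both had an untreated level near that with GCM. The second region lost its call without GCM replicate 2 (adjusted p = 0.0951, edgeR).

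A pair on chromosome 4 lay 266 bp apart. The first, chr4:214757478-214757822, held 2.03 and 2.53 CPM with LPS, 5.65 and 5.08 CPM with GCM and 4.84 and 5.05 CPM untreated. The second, chr4:214758089-214758438, held 8.13 and 7.67 CPM with LPS, 4.18 and 4.51 CPM with GCM and 3.67 and 3.64 CPM untreated. On chromosome 7 the pair was 440 bp apart. At chr7:71081525-71082707 LPS gave 9.45 and 15.0 CPM, GCM 20.3 and 18.5 CPM and untreated 14.7 and 17 CPM, and without LPS replicate 1 this call was lost (adjusted p = 0.160, edgeR). At chr7:71083148-71083883 LPS gave 18.4 and 22.0 CPM, GCM 10.3 and 11.8 CPM and untreated 12.4 and 11.2 CPM.

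With the untreated reference taken from the authors' deposited tables, LPS gain held 3882 regions, LPS loss 1283, GCM gain 518 and GCM loss 45.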
